A study of Mus musculus with 6 samples.

Results

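Potassium channel genes were examined in primary cultures of mouse renal tubule epithelial cells (RTECs) with and without the cytokine TGF-β1. The genes were taken as the protein-coding genes whose symbol begins with Kcn followed by a letter, which were 94 of the 46517 genes in the count files. Of these, 42 had 10 or more counts in at least 3 of the 6 libraries and are described here by channel class. The other 52 had no more than 33 counts in any library, and 8 of them had no count anywhere.

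The RTECs came from kidneys of wild-type FvB mice, aged 4 to 6 weeks by the sample labels, while the study's methods name males of a somewhat younger age range. 3 cultures were controls (CTL) and 3 were given TGF-β1 at 50 ng/ml for 24 h, each following 24 h without serum, and no culture carried an engineered allele. Poly(A) RNA was sequenced as single 50-bp reads. The labels number the cultures 1 to 3 in each group but do not say which animals each came from, so the p-values measure the spread between these cultures.

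Potassium channels let potassium ions cross cell membranes and so set the resting membrane potential. In kidney tubules they return to the blood side the potassium brought in by the sodium pump, and in some segments they secrete it into the urine. Voltage-gated channels open on depolarization, inward rectifiers and tandem-pore channels carry current near rest, and another class opens when calcium or sodium rises inside the cell. Many channels are completed by accessory subunits that form no pore but alter gating, location or calcium sensitivity.

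Counts on genes summed to between 28313080 and 34183497 per library, so that a floor of 3 counts corresponded to 0.0878 to 0.106 CPM (counts scaled to the library total). Both replicate 2 cultures stood apart from the others. Summed Y-linked transcripts were at 154 CPM in CTL replicate 2 and 136 CPM in TGF-β1 replicate 2, against at most 0.177 CPM in the other 4, which do not match a male source. Xist, a transcript of female cells, was at 510 to 652 CPM in those 4. It was also present at 243 and 198 CPM in CTL and TGF-β1 replicate 2, so these cultures do not match a wholly male source either. 6 tubule epithelial markers summed to 980 and 805 CPM in these cultures and to between 1655 and 2618 CPM in the other 4. 6 fibroblast markers summed to 2161 and 2304 CPM in replicate 2, against 753 to 1009 CPM elsewhere. Col1a1, Col3a1, Pdgfrb and Dcn were each highest in replicate 2 of both groups. Pdgfra was not, with 29, 29 and 44 counts in CTL replicates 1, 2 and 3 and 42, 20 and 75 with TGF-β1. Lum had 0, 0 and 24 counts in CTL and 1, 3 and 2 with TGF-β1. Of 15 markers of the thick limb, distal tubule and collecting duct, 3 had enough counts to be tested, at 9 to 57 for Umod, 14 to 31 for Slc12a1 and 5 to 30 for Scnn1g. The other 12 had at most 14 counts in any library, with Aqp2 at 0 to 5, Slc12a3 at 1 to 9 and Atp6v1g3 at 0 throughout. Proximal markers were present but uneven, with 884 to 2444 counts of Lrp2 and 2 to 10 counts of Slc34a1. In such bulk samples fewer cells of a type and less RNA per cell cannot be told apart.

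Of the 42 genes described, 40 had enough counts to be tested. With TGF-β1, 4 were higher (Kcnk12, Kcnmb1, Kcnn3 and Kcnab2) and 6 were lower (among them Kcna1, Kcna5, Kcnh3, Kcnj16 and Kcnk10) at an adjusted p-value under 0.05. These 10 made up 25% of the tested channel genes, beside 11.7% of all 15862 genes tested, of which 5% were higher and 6.69% lower. 2 of the 10, Kcna1 and Kcna5, reached 10 counts only in CTL, the group in which they were higher. The median log2 fold change was -0.11 over the channel genes, 17 of which had positive and 23 negative values, and it was -0.0028 over all genes. A second fit took the replicate number as a block, a pairing that the labels do not state, and so compared same-numbered cultures. It placed 7 channel genes higher and 11 lower, or 45% of those tested beside 34.2% of all genes, of which 15.1% were higher and 19.1% lower. The groups did not overlap in 15 of the 40 genes, or 37.5%, close to the 35.1% found over all genes. The number of calls depended on single cultures. With all cultures 1854 genes of any kind were called. Separate fits called 295 when CTL replicate 1 was removed and 321 when TGF-β1 replicate 1 was. Fits without CTL replicate 2 or 3 called 1024 and 1265, and fits without TGF-β1 replicate 2 or 3 called 1209 and 977.

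The members near the limit of 10 counts in 3 libraries were as follows. Kcna1 and Kcna5 entered only through their CTL cultures. Kcnk3, an acid-sensitive tandem-pore channel, entered only through the TGF-β1 cultures, with 2, 1 and 5 counts in CTL and 10, 20 and 14 after TGF-β1, and together with Kcnk6 it had too few counts to be tested. Just inside was Kcnu1, a sperm channel with 3 to 14 counts, and just outside were Kcna6, Kcnab1, Kcnh8, Kcnj10, Kcnmb2 and Kcnrg, each with 10 or more counts in 2 libraries.

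**Figure D1:**
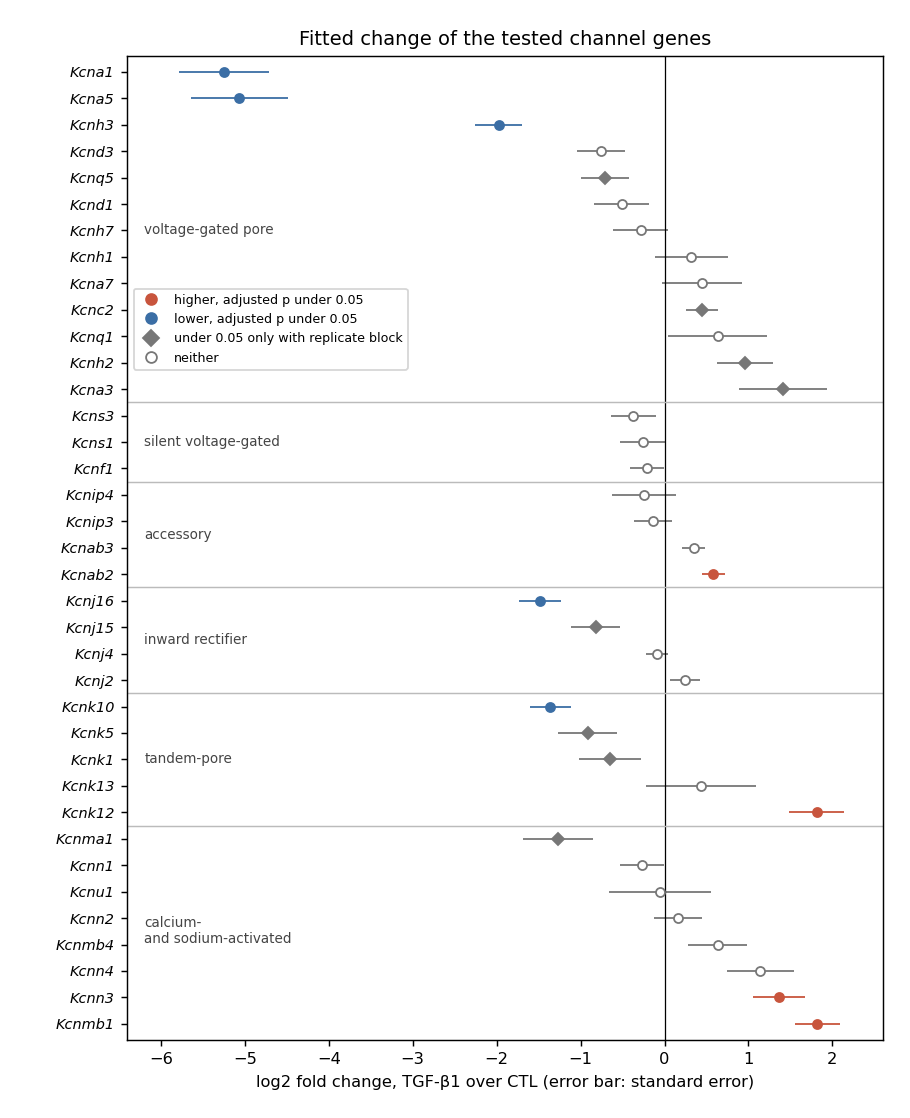
Log2 fold change of TGF-β1 over CTL cultures for the tested potassium channel genes reported here by channel class, with 3 cultures per group and bars showing the standard error of the fit. Kcna1 and Kcna5 lie far to the left of all other genes at -5.25 and -5.07, and the 4 genes called higher are Kcnk12, Kcnmb1, Kcnn3 and Kcnab2.

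Start regions are shown for the genes past the threshold that have exactly 1 entry in a RefSeq promoter table, a choice made after the values were seen. 4 of the 10 did, 3 had none and 3 had several. Each line runs 5′ to 3′ from 250 bases before to 50 bases after the transcription start of that promoter entry, on GRCm38.p6. The Kcna5 region lies wholly upstream of the gene span used elsewhere here, whose upper end is at 126535412. Capitals mark CAGAC or its reverse complement GTCTG, the short element that SMAD proteins, the transcription factors downstream of TGF-β receptors, are known to bind.
Kcna5 (chr6:126535506-126535805, minus strand): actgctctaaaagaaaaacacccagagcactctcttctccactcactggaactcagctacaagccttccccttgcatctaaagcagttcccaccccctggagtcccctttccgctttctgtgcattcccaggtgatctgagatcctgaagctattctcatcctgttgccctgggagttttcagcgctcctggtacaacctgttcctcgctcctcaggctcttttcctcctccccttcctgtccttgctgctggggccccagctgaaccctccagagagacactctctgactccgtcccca
Kcnmb1 (chr11:33962763-33963062, plus strand): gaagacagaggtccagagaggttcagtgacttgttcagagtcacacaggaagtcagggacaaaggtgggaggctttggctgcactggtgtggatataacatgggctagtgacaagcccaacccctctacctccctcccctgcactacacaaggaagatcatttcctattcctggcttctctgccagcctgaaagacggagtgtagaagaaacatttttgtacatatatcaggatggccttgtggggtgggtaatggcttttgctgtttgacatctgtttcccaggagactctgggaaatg
Kcnk12 (chr17:87797945-87798244, minus strand): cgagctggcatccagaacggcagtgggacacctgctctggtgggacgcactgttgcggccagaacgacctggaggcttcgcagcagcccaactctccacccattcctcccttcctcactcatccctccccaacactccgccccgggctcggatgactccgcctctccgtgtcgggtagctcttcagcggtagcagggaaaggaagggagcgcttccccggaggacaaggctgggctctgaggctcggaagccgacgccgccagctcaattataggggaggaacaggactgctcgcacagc
Kcnn3 (chr3:89519914-89520213, plus strand): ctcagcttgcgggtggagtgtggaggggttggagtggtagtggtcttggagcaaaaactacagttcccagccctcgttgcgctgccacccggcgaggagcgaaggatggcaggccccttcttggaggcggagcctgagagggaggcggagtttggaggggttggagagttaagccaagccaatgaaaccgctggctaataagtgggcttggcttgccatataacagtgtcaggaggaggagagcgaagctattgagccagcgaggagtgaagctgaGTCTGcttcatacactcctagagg

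The Kcnn3 region held 1 copy of the element, read as GTCTG within the transcribed stretch, and the other 3 regions held none. The letters occurred in 49.6% of all 32851 promoters of this length and in 54 of the 94 promoter entries of Kcn genes (57.4%), which belonged to 69 genes. The longer AP-1 element TGACTCA or TGAGTCA, which does not contain the first, was in 5.20% of all promoters, in 2.13% of those of Kcn genes and in none of the 4 shown. Such matches describe the letters only and do not show a binding site.

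Transcript levels per kb of exon differed widely between the channel genes. A tandem-pore channel, Kcnk1, and an inward rectifier, Kcnj16, led in CTL cultures at 66.1 ± 25.5 and 58.3 ± 8.8 CPM per kb (SD, n = 3). Kcnk12 followed at 9.33 ± 1.10, then Kcnk5 at 4.36 ± 1.83 and Kcnj4 at 3.41 ± 0.18 CPM per kb (SD, n = 3), and no other member exceeded 1.34. The levels of Kcnk1 and Kcnj16 overlapped in CTL, as did those of Kcnk5 and Kcnj4, so neither pair can be ordered beyond its spread.

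After TGF-β1 the levels per kb were 42.1 ± 13.8 for Kcnk1, 32.8 ± 15.1 for Kcnk12 and 20.9 ± 6.7 for Kcnj16 (SD, n = 3). Kcnj16 and Kcnk12 exchanged places in part of the cultures. The ratio of Kcnk12 to Kcnj16 per kb was 0.143, 0.219 and 0.132 in CTL replicates 1, 2 and 3 and 1.35, 3.48 and 0.757 with TGF-β1. Kcnk12 thus exceeded Kcnj16 in TGF-β1 replicates 1 and 2 and stayed below it in replicate 3. The ratio was higher in each treated culture than in each control (two-sided exact permutation test, p = 0.1, which is the lowest value this design can reach), and it was chosen after the values were seen.

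Summed over the 42 genes, the level was 159, 125 and 184 CPM per kb in CTL replicates 1, 2 and 3 and 115, 113 and 121 with TGF-β1. Kcnk1, Kcnj16 and Kcnk12 held 79.4% to 89.6% of this sum in CTL and 80.3% to 84.5% after TGF-β1. By class, inward rectifiers made up 40.1% of the CTL sum and 21.3% of the TGF-β1 sum, and tandem-pore channels 51.4% and 66.7%. The 16 voltage-gated pore genes together held 4.62% and 5.82%.

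**Figure D2:**
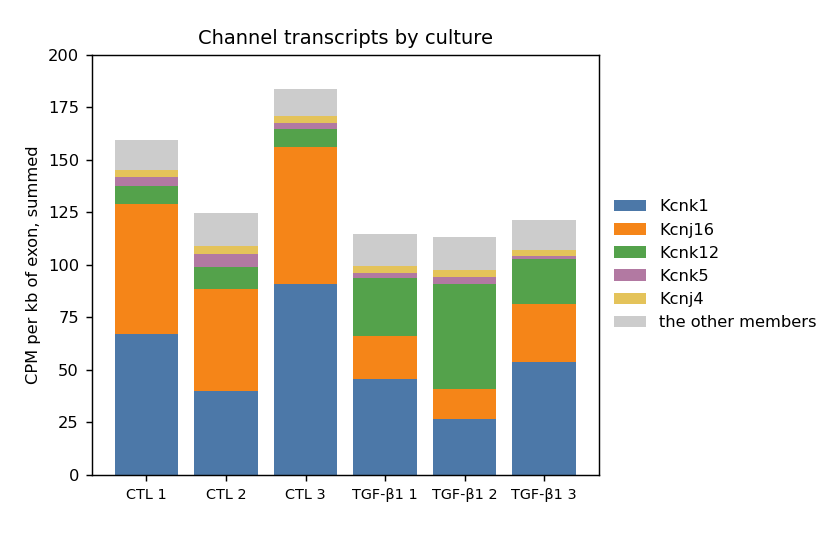
Summed transcript level of the 42 described potassium channel genes in each culture, in CPM per kb of exon, with the 5 genes of highest level drawn separately. Kcnk1 and Kcnj16 fill most of each CTL bar, and Kcnk12 takes a larger part of each TGF-β1 bar.

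Among voltage-gated pore genes 30 were members, 16 were described and all 16 were tested. 4 were lower with TGF-β1 (25%), and with the replicate block 5 were lower and 3 higher (50%). Over all genes the shares called were 11.7% and 34.2%, and these also stand beside the counts of each class and list below. Without the block edgeR and DESeq2 each called 0 higher, although 2 had an unadjusted p-value under 0.05 in edgeR. Kcna1 and Kcna5, Shaker-type channels known from axons and from heart and smooth muscle, entered through CTL alone, so their values are given as a description. Kcna1 had 52, 47 and 29 counts in CTL replicates 1, 2 and 3 and 0, 2 and 1 with TGF-β1. Kcna5 had 78, 132 and 39 counts in CTL and 2, 2 and 3 with TGF-β1. Both were thus present in all CTL libraries and at or below the floor of 3 counts in all TGF-β1 libraries. The ratio of summed counts, scaled for depth, was 43.0 for Kcna1 (95% exact interval 14.4 to 211) and 35.8 for Kcna5 (95% exact interval 17.1 to 90.1), intervals that cover counting error only. Their fitted log2 fold changes were -5.25 (standard error, SE, 0.54) and -5.07 (SE 0.58), and at such counts these values depend on the prior count of the fit. The Kcna1 value moved to -6.13 without TGF-β1 replicate 2.

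The loci of Kcna5, Kcna1 and Kcna6 follow each other on chromosome 6 of GRCm38. Kcna5 lies from 126532551 to 126535412 and Kcna1 from 126640397 to 126646384, both on the minus strand, 105 kb apart. Kcna6, another Shaker-type channel, begins 61.9 kb further on, and its counts of 10, 5 and 10 in CTL and 8, 2 and 3 with TGF-β1 were too low to be tested. On chromosome 3, Kcna2, the neighbor of Kcna3, had at most 1 count in any library.

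Kcnh3, of the ether-a-go-go family and best known from forebrain neurons, had 95.6, 94.2 and 80.7 normalized counts in CTL and 31.5, 14.5 and 22.5 with TGF-β1. Normalized counts are scaled by TMM, which corrects for library size and composition. The groups were well apart, at 90.2 ± 8.2 and 22.8 ± 8.5 (SD, n = 3), with a log2 fold change of -1.98 (SE 0.28, adjusted p = 0.0116). The adjusted p-value was 0.0627 without CTL replicate 1.

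4 further voltage-gated genes passed only with the replicate block. Kcna3, the channel of T lymphocytes, had 15.5, 16.3 and 10.9 normalized counts in CTL and 29.5, 67.3 and 18.8 with TGF-β1. All treated cultures exceeded all controls, but replicate 2 was far above the others, and the adjusted p-value was 0.138 without and 0.00893 with the block. Of 6 leukocyte markers 5 were tested and 1, Csf1r, was lower, and their sum was 6.75 to 9.57 CPM in CTL and 4.05 to 7.86 CPM after TGF-β1, with Cd3e at 0 or 1 count. Kcnh2, a channel of cardiac repolarization, had 30.9, 51.9 and 26.2 normalized counts in CTL and 67.0, 93.2 and 53.5 with TGF-β1. It was 0.84 to 1.12 higher on the log2 scale in every same-numbered pair (adjusted p = 0.118 without and 0.00315 with the block). Without both replicate 2 cultures its adjusted p-value was 0.0407, and with single cultures removed it was 0.0666 to 0.324.

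Kcnc2, a fast channel of firing neurons and among the voltage-gated genes of highest level per kb, had 313, 287 and 312 normalized counts in CTL and 478, 294 and 470.3 with TGF-β1. Replicates 1 and 3 differed from their controls by 0.61 and 0.59 on the log2 scale, while replicate 2 differed by 0.03. The adjusted p-value of Kcnc2 was 0.19 in the fit without the block, 0.0297 with it, 0.0192 without TGF-β1 replicate 2 and 0.0109 without both replicate 2 cultures. With any other single culture removed it was 0.292 to 0.415. Kcnq5, of the family that carries M-type currents, had 126, 144 and 102 normalized counts in CTL and 51.8, 106 and 70.4 with TGF-β1. Its groups overlapped, although each pair was lower by 0.45 to 1.28 (adjusted p = 0.162 without and 0.016 with the block). The voltage-gated genes Kcna7, Kcnd1, Kcnd3, Kcnh1, Kcnh7 and Kcnq1 did not pass in either fit, with log2 fold changes from -0.76 for Kcnd3 to 0.63 for Kcnq1. The strand setting of the counting is not given in the sources used here, so counts of genes that share exon bases with one on the opposite strand are uncertain. This holds for Kcnh7 and Kcnq1, which share 696 and 121 bases with Gca and Kcnq1ot1, and for Kcnma1 (1016 bases), Kcnj15 (333), Kcnq5 (237), Kcnk1 (179), Kcnab3 (147) and Kcnn1 (132) described here. It also holds for Kcnmb4 (693 and 355 bases), Kcnn2 (323 and 284), Kcnk3 (229), Kcnip4 (168 and 99), Kcnd3 (165) and Kcnh3 (1). In all, 17 of the 42 genes described share exon bases with another gene.

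**Figure D3:**
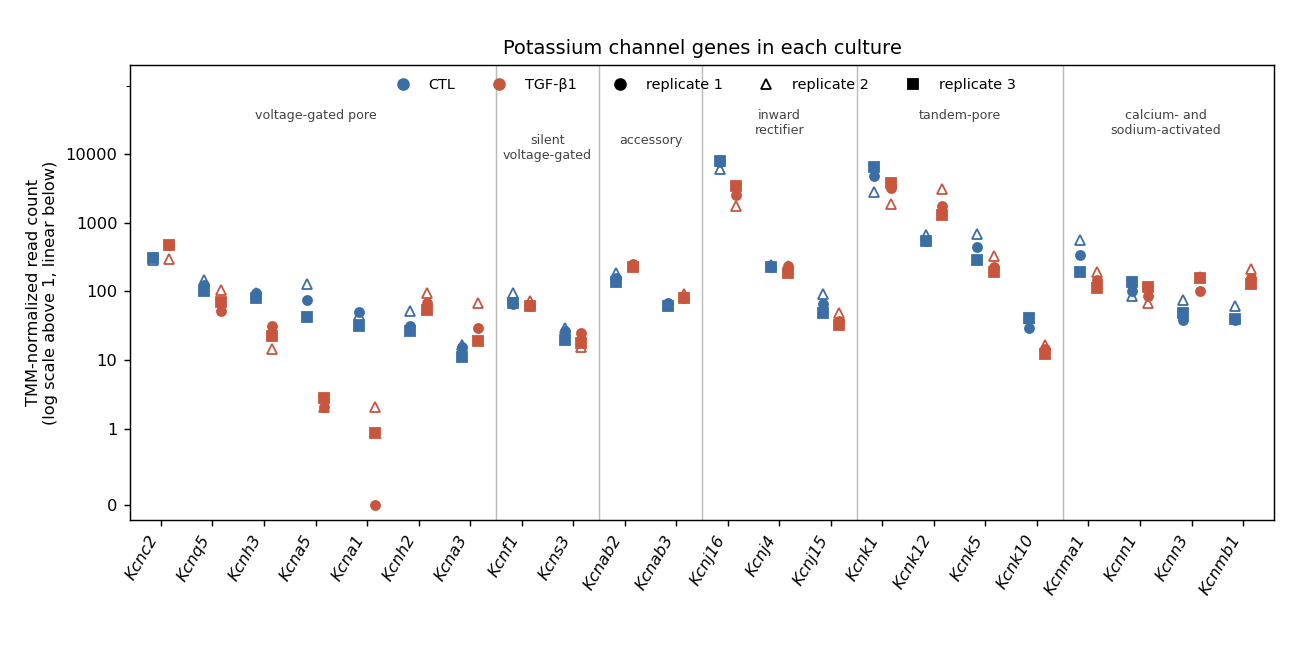
TMM-normalized read counts of the reported potassium channel genes that passed the threshold with or without the replicate block or led their class in level, in each of the 3 CTL and 3 TGF-β1 cultures, with marker shape giving the replicate number. Kcna1 and Kcna5 fall to 0 to 2.82 normalized counts in all TGF-β1 cultures, and Kcnk12 and Kcnmb1 lie above their controls in all 3.

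Electrically silent subunits, which form no channel alone but modify others of the voltage-gated family, were 10 members, of which 3 were described. In edgeR 0 of these passed with or without the block and 0 had an unadjusted p-value under 0.05, and DESeq2 also called 0. Kcnf1 had 64.7, 95.2 and 67.6 normalized counts in CTL and 62.0, 73.5 and 61.0 with TGF-β1, and Kcns3 had 26.1, 28.8 and 19.6 against 24.4, 15.5 and 17.8. Both overlapped between groups, with log2 fold changes of -0.21 (SE 0.20) and -0.37 (SE 0.27).

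Accessory subunits of voltage-gated channels were 13 members, of which 4 were described and 1 was higher. Kcnab2, a cytoplasmic beta subunit of Shaker-type channels with the fold of an oxidoreductase, had 158, 185 and 135 normalized counts in CTL and 255, 231 and 230.0 with TGF-β1. The groups did not overlap, at 159 ± 25 and 239 ± 14 (SD, n = 3), and the log2 fold change was 0.58 (SE 0.14, adjusted p = 0.0473). This call was close to the threshold. Leaving out CTL replicate 1 or 3 or TGF-β1 replicate 1, 2 or 3 gave adjusted p-values of 0.177, 0.0918, 0.152, 0.0881 and 0.0959, scaling by library size alone gave 0.0641, and a filter of 10 counts in every library gave 0.0507. With the block Kcnab2 passed at an adjusted p-value of 0.0064. Kcnab2 shares 125 exon bases with the noncoding gene Gm16334 on the same strand, whose own counts were 0, 2 and 1 in CTL and 12, 9 and 11 with TGF-β1. Kcnab3, a second beta subunit, had 68.6, 64.4 and 62.2 normalized counts in CTL and 79.2, 90.1 and 79.8 with TGF-β1. The groups of Kcnab3 did not overlap, but its adjusted p-value was 0.156 without and 0.102 with the block. Kcne genes, single-span subunits that several epithelial channels need, had at most 16 counts in any library.

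Inward rectifiers were 15 members, of which 4 were described and 1 was lower. Kcnj16 encodes a subunit that pairs with those of Kcnj10 or Kcnj15 in the basolateral membrane of tubule cells. It had 7686, 6031 and 8097 normalized counts in CTL replicates 1, 2 and 3 and 2565, 1785 and 3465 with TGF-β1. All controls were far above all treated cultures, and replicate 2 was the lowest of each group. The means were 7271 ± 1094 and 2605 ± 841 (SD, n = 3), a log2 fold change of -1.48 (SE 0.25, adjusted p = 0.0205). Its 2 partners were scarce. Kcnj15 had 64.7, 92.3 and 49.1 normalized counts in CTL and 36.6, 48.7 and 31.9 with TGF-β1, without overlap, and passed only with the block (log2 fold change -0.80, adjusted p = 0.127 without and 0.00767 with it). Kcnj10 had 12, 4 and 1 counts in CTL and 15, 4 and 8 with TGF-β1 and was not tested.

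The Kcnj16 call was lost without CTL replicate 1 (adjusted p = 0.0912), CTL replicate 3 (0.0525) or TGF-β1 replicate 1 (0.0894), and with a filter of 1 count in all libraries together (0.0727). The sum of the proximal tubule markers moved the same way, at 79.6 to 95.9 CPM in CTL and 34.2 to 48.3 CPM with TGF-β1. Of the 4 tested, Aqp1 and Lrp2 were lower. Cubn and Slc5a12 did not pass, with log2 fold changes of 0.09 and -1.22 (adjusted p = 0.698 and 0.189). Of the 6 tubule epithelial markers, Cdh16 and Pax8 were lower, with log2 fold changes of -1.50 and -0.77 (adjusted p = 0.00922 and 0.00436), and the other 4 did not pass. The part of this in the change of Kcnj16 was not tested. Kcnj2, which follows Kcnj16 on chromosome 11 after 38.2 kb, had a log2 fold change of 0.24 (SE 0.17, adjusted p = 0.418). Kcnj4, a strong inward rectifier, had 225, 246 and 226 normalized counts in CTL and 234, 237 and 185 with TGF-β1, with overlapping groups and a log2 fold change of -0.09 (SE 0.13, adjusted p = 0.698). Kcnj1, the secretory channel of the thick limb and collecting duct, had 1 to 3 counts in every library.

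Tandem-pore channels were 14 members, of which 7 were described and 5 tested, with 1 higher and 1 lower. Kcnk12, whose product passes little or no current when expressed alone, had 550.5, 662 and 536 normalized counts in CTL and 1729.7, 3115 and 1313 with TGF-β1. The groups were far apart, although treated replicate 2 was well above the other 2. The means were 583 ± 69 and 2053 ± 943 (SD, n = 3), with a log2 fold change of 1.81 (SE 0.33, adjusted p = 0.0241). The adjusted p-value was 0.112, 0.0551 and 0.0681 without CTL replicates 1, 2 and 3, 0.074 without TGF-β1 replicate 1 and 0.0844 with a filter of 1 count in all libraries. With the block it was 0.000934, and without both replicate 2 cultures the log2 fold change was 1.48 (adjusted p = 0.00457). The closest relative, Kcnk13, had a log2 fold change of 0.43 (SE 0.65, adjusted p = 0.715).

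Kcnk10, a channel opened by stretch and lipids, had 29.0, 40.4 and 41.4 normalized counts in CTL and 14.2, 16.6 and 12.2 with TGF-β1. The groups did not overlap, and the log2 fold change was -1.36 (SE 0.24, adjusted p = 0.0216). Leaving out CTL replicate 1, 2 or 3 or TGF-β1 replicate 1 or 3 gave adjusted p-values of 0.0567, 0.0598, 0.0557, 0.091 and 0.0676. With the block the adjusted p-value was 0.00389.

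Kcnk1, a weakly rectifying background channel found along the nephron, had 4756, 2841 and 6449.7 normalized counts in CTL and 3236, 1898 and 3808 with TGF-β1. The groups overlapped because replicate 2 was low in both, yet each pair fell by a like amount, by 0.56, 0.58 and 0.76 on the log2 scale. The log2 fold change of Kcnk1 was -0.65 without the block (SE 0.37, adjusted p = 0.303) and -0.63 with it (SE 0.05, adjusted p = 9.14e-05). Kcnk5, an alkali-activated channel of the proximal tubule, showed the opposite order of cultures, with 441, 679.7 and 289 normalized counts in CTL and 231, 327 and 191 with TGF-β1. Replicate 2 was the highest of each group, and the log2 fold change was -0.92 (adjusted p = 0.153) without and -0.88 (adjusted p = 0.000453) with the block. The sum of the tubule epithelial markers was also lowest in replicate 2 of each group, and that of the fibroblast markers highest there. Single markers differed, since Pax8 had 6942, 7080 and 5585 counts in CTL replicates 1, 2 and 3. The part of these markers in Kcnk1 and Kcnk5 was not tested.

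**Figure D4:**
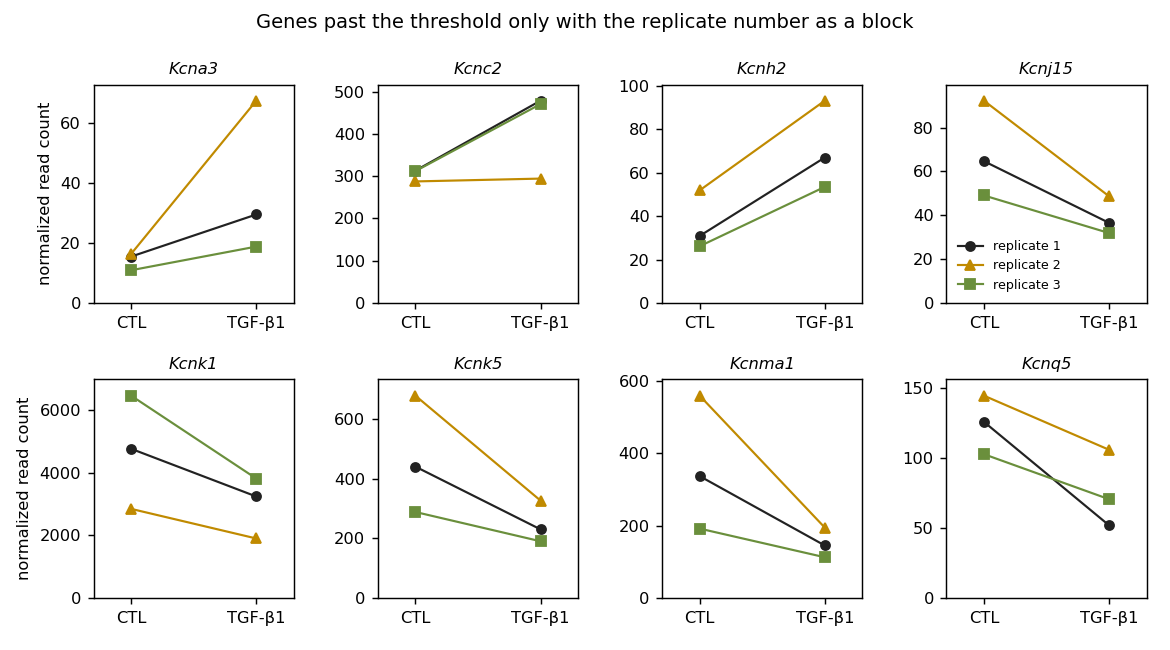
Normalized read counts of the 8 potassium channel genes that passed the threshold only with the replicate block, with lines joining the CTL and TGF-β1 cultures of the same number. All 3 lines of each gene run the same way. In both groups replicate 2 lies lowest for Kcnk1 and Kcnc2 and highest for Kcnk5, Kcnma1, Kcnh2, Kcna3, Kcnj15 and Kcnq5.

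Over the 40 tested channel genes, replicate 2 was the lowest culture of both groups in 13 and the highest in 14. Over all genes tested each of these patterns was found in 24.9%.

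Calcium- and sodium-activated channels with their beta subunits were 12 members, of which 8 were described and tested and 2 were higher. Kcnmb1 encodes the beta subunit that raises the calcium sensitivity of the large-conductance BK channel and is known from smooth muscle. It had 38.6, 60.6 and 39.3 normalized counts in CTL and 154, 209 and 128 with TGF-β1. Each treated culture was far above the highest control, and the log2 fold change was 1.82 (SE 0.27, adjusted p = 0.0128). The call was lost when CTL replicate 1 (adjusted p = 0.0731) or TGF-β1 replicate 1 (0.058) was left out, and the adjusted p-value with the block was 6.23e-05. The gene lies on chromosome 11 of GRCm38 from 33963013 to 33973641, within the span of Kcnip1 on the opposite strand but sharing no exon with it, and Kcnip1 had 1 to 5 counts per library. 4 smooth muscle markers summed to 1615 to 2765 CPM in CTL and 2177 to 3556 CPM with TGF-β1. Of these Acta2, Cnn1 and Myh11 had log2 fold changes of 0.55, 0.88 and 0.89 that did not pass, and Des was lower at -1.17 (adjusted p = 0.0113). Their part in the change of Kcnmb1 was not tested.

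Kcnma1, the pore subunit of the same BK channel, had 337, 559.6 and 192 normalized counts in CTL and 145, 195 and 113 with TGF-β1. The groups overlapped, and each pair fell by 1.21, 1.52 and 0.77 on the log2 scale. Replicate 2, where the summed fibroblast markers were highest, was the highest of each group, and the part of fibroblasts was not tested. The log2 fold change was -1.27 (SE 0.42, adjusted p = 0.108) without the block and -1.21 (SE 0.14, adjusted p = 0.000502) with it, and DESeq2 gave an adjusted p-value of 0.0115. With single cultures removed the adjusted p-value was 0.0484 in the absence of CTL replicate 3 and 0.137 to 0.257 in the other 5 fits. The ratio of Kcnmb1 to Kcnma1 per kb of exon was 0.464, 0.438 and 0.829 in CTL replicates 1, 2 and 3 and 4.31, 4.35 and 4.59 with TGF-β1. Per kb, pore transcripts exceeded beta transcripts in all controls, and beta exceeded pore in all treated cultures, with means of 0.577 ± 0.218 and 4.42 ± 0.15 (SD, n = 3; two-sided exact permutation test, p = 0.1, again the lowest possible). This ratio too was chosen after the values were seen. It rests on the summed annotated exon lengths, 16.976 kb for Kcnma1 and 4.191 kb for Kcnmb1, and the isoforms present were not examined. Before division by length the treated cultures were close, with 154, 209 and 128 normalized counts of Kcnmb1 beside 145, 195 and 113 of Kcnma1. The order of the 2 subunits after TGF-β1 thus depends on these lengths. The other beta subunits were rarer, with Kcnmb4 at 0.63 on the log2 scale (adjusted p = 0.295) and Kcnmb2 at 6 to 33 counts.

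**Figure D5:**
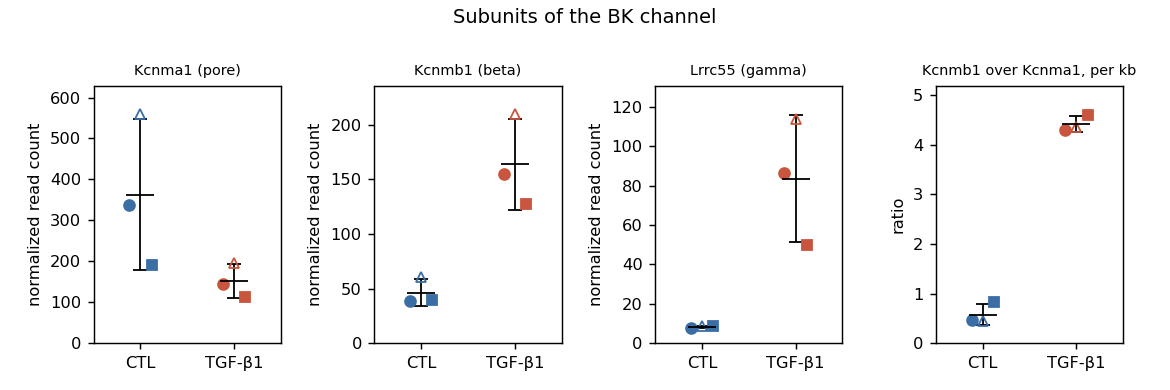
Normalized read counts of the BK channel genes Kcnma1, Kcnmb1 and Lrrc55 and the ratio of Kcnmb1 to Kcnma1 per kb of exon in each culture, with horizontal marks for means and bars for the SD of 3 cultures. The ratio lies below 1 in all CTL cultures and above 4 in all TGF-β1 cultures.

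Small- and intermediate-conductance channels, opened by calcium through calmodulin, are encoded by Kcnn1 to Kcnn4. Kcnn3 had 37.7, 76.0 and 49.1 normalized counts in CTL and 103, 162 and 156 with TGF-β1. The groups did not overlap, and the log2 fold change was 1.36 (SE 0.31, adjusted p = 0.0404). Its adjusted p-value was 0.141 and 0.104 without CTL replicates 1 and 3, 0.0741, 0.0956 and 0.103 without TGF-β1 replicates 1, 2 and 3, and 0.000441 with the block. Kcnn4, the intermediate-conductance channel, was at 1.14 (SE 0.40, adjusted p = 0.123), and Kcnn1 and Kcnn2 were at -0.27 and 0.16 with adjusted p-values of 0.551 and 0.758. Kcnn1, whose level in CTL of 0.746 ± 0.185 CPM per kb (SD, n = 3) overlapped with the 0.675 ± 0.344 of Kcnma1, had 100.4, 86.5 and 138 normalized counts in CTL and 86.3, 68.4 and 115 with TGF-β1, with overlapping groups. Sodium-activated channels, Kcnt1 and Kcnt2, had at most 10 counts in any library.

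Genes that handle potassium with these channels but have other names were followed as a list of 47, of which 31 were tested. 4 were higher and 7 lower, or 35.5% of those tested beside 11.7% of all genes, with a median log2 fold change of 0.019. Lrrc55, counted among the 4, reached 10 counts only with TGF-β1, the group in which it was higher. With the replicate block 8 were higher and 11 lower, where 34.2% of all genes passed.

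The 3 tested accessory subunits outside the Kcn family all passed, although Lrrc55 among them reached 10 counts only with TGF-β1. Lrrc55, a gamma subunit of BK channels, had 8, 9 and 8 counts in CTL and 85, 110 and 53 with TGF-β1. It reached 10 counts only in the TGF-β1 cultures, so its log2 fold change of 3.30 (SE 0.38) is given as a description. The other gamma subunits, Lrrc26, Lrrc38 and Lrrc52, had 0 to 2 counts. Dpp6, which speeds A-type channels of the Kcnd genes, had 321, 227 and 423 normalized counts in CTL and 1146, 868 and 1010.2 with TGF-β1, without overlap. Its log2 fold change was 1.64 (SE 0.24, adjusted p = 0.0129), and its partners Kcnd1 and Kcnd3 were at -0.51 and -0.76 without passing (adjusted p = 0.366 and 0.149). Dpp6 did not pass when CTL replicate 1 (adjusted p = 0.0745) or TGF-β1 replicate 1 (0.0615) was left out. Amigo1, a membrane protein that associates with voltage-gated channels, was lower, with 722, 701 and 632 normalized counts in CTL and 482, 291 and 428 with TGF-β1 (log2 fold change -0.77, SE 0.19, adjusted p = 0.0484). That call was lost in 5 of the 6 fits without 1 culture, all but the one without TGF-β1 replicate 2, with adjusted p-values of 0.0727 to 0.173.

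Of 14 sodium pump genes, 8 were tested, 2 were higher and 3 lower, or 62.5% of those tested beside 11.7% of all genes. Atp1b1, the main beta subunit in tubules, had 2819, 2041 and 2712 normalized counts in CTL and 1185, 719.9 and 1429.8 with TGF-β1. Its log2 fold change was -1.18 (SE 0.26, adjusted p = 0.0418). Atp1b3, also a beta subunit, had a higher level, at 63.6 ± 4.3 CPM per kb in CTL and 66.5 ± 6.2 with TGF-β1 (SD, n = 3). Atp1b1 was at 25.9 ± 4.3 and 11.4 ± 3.7 CPM per kb (SD, n = 3). The log2 fold change of Atp1b3 was 0.06 (SE 0.08, adjusted p = 0.666). Atp1b2, another beta subunit, fell by 1.60 on the log2 scale (adjusted p = 0.0345). Fxyd6 and Fxyd5, small pump regulators, rose by 1.39 and 0.78 (adjusted p = 0.0394 and 0.0487). Each of the 4 calls named was lost without CTL replicate 1, at adjusted p-values of 0.154 for Atp1b1, 0.12 for Atp1b2, 0.112 for Fxyd6 and 0.137 for Fxyd5, and each also without TGF-β1 replicate 1, at 0.127, 0.127, 0.123 and 0.145 in the same order. Further losses came without CTL replicate 2 for Atp1b1 (0.0556), Atp1b2 (0.0729), Fxyd6 (0.0975) and Fxyd5 (0.0581), and without CTL replicate 3 for Atp1b1 (0.0967), Fxyd6 (0.0937) and Fxyd5 (0.0658). TGF-β1 replicate 3 was needed for Atp1b2 (0.0906), Fxyd6 (0.0979) and Fxyd5 (0.124), and TGF-β1 replicate 2 for Fxyd5 (0.0836).

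The 10 regulators of potassium and sodium transport were all tested, and 3 were lower, or 30% beside 11.7% of all genes. Wnk4, a kinase that controls distal salt and potassium transport, had 751, 691 and 659.7 normalized counts in CTL and 387, 317 and 361 with TGF-β1. The spread within each group was small beside the gap, with a log2 fold change of -0.98 (SE 0.10, adjusted p = 0.00501) and a call in all 6 fits without 1 culture. Nedd4l, a ubiquitin ligase of sodium channels, and Oxsr1, a kinase that WNK kinases activate, fell by 0.74 and 0.21 on the log2 scale (adjusted p = 0.0173 and 0.031). Both calls were lost when CTL replicate 1 (adjusted p = 0.0858 and 0.135) or TGF-β1 replicate 1 (0.0629 and 0.131) was left out, and that of Oxsr1 also without CTL replicate 2 (0.0826), CTL replicate 3 (0.067) or TGF-β1 replicate 3 (0.0993). Sgk1, an aldosterone-responsive kinase, was at 0.79 (SE 0.25), with an adjusted p-value of 0.101 without and 3.53e-05 with the block. Of the 6 tested cation-chloride cotransporters and the 4 other potassium-permeable channels, 0 passed in edgeR without the block, 0 had an unadjusted p-value under 0.05 and DESeq2 called 0. With the block 2 cotransporters, Slc12a4 and Slc12a7, were higher and Slc12a2 was lower. The 3 proton-potassium pump genes had counts too low to be tested.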

How the data were processed

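The authors trimmed single-end 50-bp reads of 3 CTL and 3 TGF-β1–treated RTEC cultures with Trim Galore, aligned them to GRCm38 with STAR 2.4.1d and counted them on genes with HTSeq 0.6.1. The deposited values are whole read counts without normalization. The annotation release and strand setting are not given in the sources used here. Reads on no gene (25.4% to 25.9%) and ambiguous reads (1.88% to 1.97%) were left out. Reads had no molecular identifiers, so floors and intervals cover counting error only. Symbols, positions and exon lengths came from GENCODE M21, which matched 46005 of 46517 identifiers.

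Differences between groups were tested with edgeR 4.0.16 under R 4.3.3 by filterByExpr, TMM, robust glmQLFit and a two-sided glmQLFTest, with Benjamini-Hochberg correction across all 15862 genes tested. The fit was checked on data simulated without a replicate effect. That check does not cover differences such as those of replicate 2. Normalized counts were scaled to the geometric mean of the effective library sizes. The labels do not state a pairing. Deviations from the group mean correlated at 0.34, 0.684 and 0.572 for equal replicate numbers and at -0.617 to 0.215 otherwise. These correlations do not establish a pairing. Deviations within a group must cancel, so the values are not independent, and replicate 2 stood apart in both groups. The main fit had no block, as the study's methods compare groups without naming a pairing. Alternatives were DESeq2 1.42.0, RLE, library size only, 2 other count filters, the replicate block, leaving out 1 culture or both cultures of a number, and a threshold of 0.01.

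Values in every culture are given for genes past 0.05 with or without the block and for the 2 genes of highest level per kb in each class, except that some genes are not reported here, although counts over the classes and lists include them. Members and lists were chosen with earlier results of these data known. Figures were drawn with matplotlib 3.10.9.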

Additional observations from a re-analysis of the deposited data

How the results depend on the processing

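Counts of channel genes were 4 higher and 6 lower, and of potassium partner genes 4 and 7. With the replicate block they were 7 and 11, and 8 and 11, and the block lost none of the 10 channel calls. At an adjusted p under 0.01 in edgeR they were 0 and 2, and 1 and 1. With 10 counts in every library, 1 partner gene was higher. Leaving out 1 culture or both cultures of a number gave 0 to 6 channel genes higher and 0 to 7 lower, and 0 to 6 and 0 to 9 partner genes, while genes of any kind called went from 1854 to between 0 and 2374. Without both replicate 1 cultures 0 genes of any kind passed in edgeR, although 1938 had an unadjusted p under 0.05. Without both replicate 2 cultures all 10 channel calls were kept, and without both replicate 3 cultures 1 was. DESeq2 and RLE kept all 10, and DESeq2 added Kcnk5, Kcnma1 and Kcnk3, of which the last reached 10 counts only with TGF-β1. Scaling by library size alone shifted the median log2 fold change of all genes to -0.077. The sign changed only among genes without a call, in fits that left out cultures, where log2 fold changes ranged, among others, from -0.22 to 0.59 for Kcnh1, -0.33 to 0.096 for Kcnip3, -0.54 to 0.096 for Kcnip4, -0.16 to 0.020 for Kcnj4, -0.40 to 0.86 for Kcnk13, -0.0022 to 0.35 for Kcnn2, -0.47 to 0.042 for Kcns1 and -0.63 to 0.50 for Kcnu1. The cause of these changes was not tested. Counts under 10 in a library carry a large relative counting error, and the cause of the low counts was not tested.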
